A study of Homo sapiens with 2 samples.

Results

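The genes described here were 20 cytosolic aminoacyl-tRNA synthetase genes and 16 genes of the amino acid response that the transcription factor ATF4 controls. They were taken by name from a fixed list of 36 genes, all of which were present in both expression matrices, and 33 of the 36 had at least 50 UMIs over both libraries. A UMI (unique molecular identifier) marks 1 captured RNA molecule, and 12128 of the 36601 genes in the matrices reached the same minimum. The files use older symbols for most synthetases, such as AARS for AARS1.

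Each aminoacyl-tRNA synthetase joins an amino acid to its tRNA and so supplies the ribosome. When amino acids run short or the endoplasmic reticulum is stressed, kinases phosphorylate the translation factor eIF2, most translation slows, and the ATF4 mRNA is translated more efficiently. ATF4 protein then raises transcription of many synthetase genes, of amino acid transporters and of enzymes that make serine, glycine, asparagine and proline. Other synthetase genes are less often counted among ATF4 targets, and 13 ATF4-driven synthetases were set beside 7 others. The split was made from general knowledge, but with earlier results of these data known. It is least certain for LARS and VARS.

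The cells were labelled MOLT4, a line derived from T-cell acute lymphoblastic leukemia, and were either treated with SP11, an HSP90 inhibitor, at 0.8 µM or left untreated, and both were collected at 48 h. Single-cell RNA-seq on a droplet platform gave 1 library per group. With 1 library per group there was no replicate, no test was possible, and differences between cultures or libraries cannot be told apart from the treatment. No source used here states whether a vehicle was added to the untreated cells or whether a library pooled several cultures.

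After barcodes with under 200 genes or over 20% mitochondrial UMIs were set aside, 852 of 864 SP11 barcodes and 1053 of 1076 control barcodes were kept. They held 9498802 UMIs in SP11 and 19375163 in control, with a median of 10488.5 UMIs per cell in SP11 and 17711 in control, and a median mitochondrial share of 5.51% in SP11 and 8.94% in control. Of 13 T-lineage markers, 7 were at 0 in both libraries (BCL11B, DNTT, TRBC1, TRBC2, CD7, CD3G and CD3D), and the list summed to 1.89 CPM (UMIs scaled to a library total of 1000000) in SP11 and 2.37 CPM in control, so the markers do not bear out the labelled cell line. A list of 7 granulocyte precursor markers summed to 1013 CPM in SP11 and 2271 CPM in control, with 5 of the 7 at 10 CPM or more in each. A list of 10 monocyte and macrophage markers summed to 1699 CPM in SP11 and 567 CPM in control, with 6 of the 10 at 10 CPM or more in SP11 and 5 of the 10 in control. The part of these marker differences, of depth and of the mitochondrial share in the ratios below was not tested. The libraries shared 114 barcodes, 13.2% of those in SP11 and 10.6% of those in control. Across libraries, the median correlation of expression was 0.694 between cells with the same barcode and 0.696 between other pairs of these cells. The best match had the same barcode for 2 of the 114.

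Synthetase RNA differed in opposite directions in the ATF4-driven and the other set. The 13 ATF4-driven synthetases together held 1185 CPM in SP11 cells and 1739 CPM in control cells, whereas the 7 others together held 706 CPM in SP11 cells and 554 CPM in control cells. Each log2 ratio is that of SP11 to control, with a 95% exact interval that covers counting error only. The pooled log2 ratio was -0.55 (-0.58 to -0.52) for the ATF4-driven synthetases and 0.35 (0.31 to 0.40) for the others, a difference of -0.90 (-0.96 to -0.85). The size of this contrast depended on the split: with LARS and VARS counted among the others, the pooled ratios were -0.51 for the ATF4-driven set and 0.0296 for the others, and the difference was -0.54. ATF4-driven synthetases thus made up 62.7% of synthetase UMIs in SP11 (exact binomial interval 61.9 to 63.4%) and 75.8% in control (75.4 to 76.2%).

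Counts of genes were read against all 12128 measured genes, of which 38.4% were at least 1.5-fold lower in SP11 and 10.7% at least 1.5-fold higher. Of the 13 ATF4-driven synthetases, 7 were at least 1.5-fold lower and 0 higher, with a median log2 ratio of -0.76. Of the 7 others, 0 were lower and 2 higher by that size, with a median of 0.34. The median measured gene had a log2 ratio of -0.35, so CPM place it below 0. Relative to that median gene, 1 ATF4-driven synthetase was at least 1.5-fold lower and 1 higher, and 5 of the 7 others were higher, against 24.3% of measured genes lower and 22.5% higher on that scale. All 7 others had a CPM ratio above 0, as did 32.6% of measured genes, and 11 of the 13 ATF4-driven synthetases had one below 0, as did 67.4%. These signs were the same with TMM and with DESeq2 scaling and after the trend with intronic length was subtracted. With TMM scaling, 8 of the 33 passed 1.5-fold upwards and 4 downwards, against 21.4% of measured genes higher and 25.1% lower, and 48.6% of measured genes lay above 0 and 51.4% below. With DESeq2 scaling 8 were higher and 2 lower, against 22.5% and 24.3% of measured genes, of which 49.9% lay above 0 and 50.1% below.

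**Figure D1:**
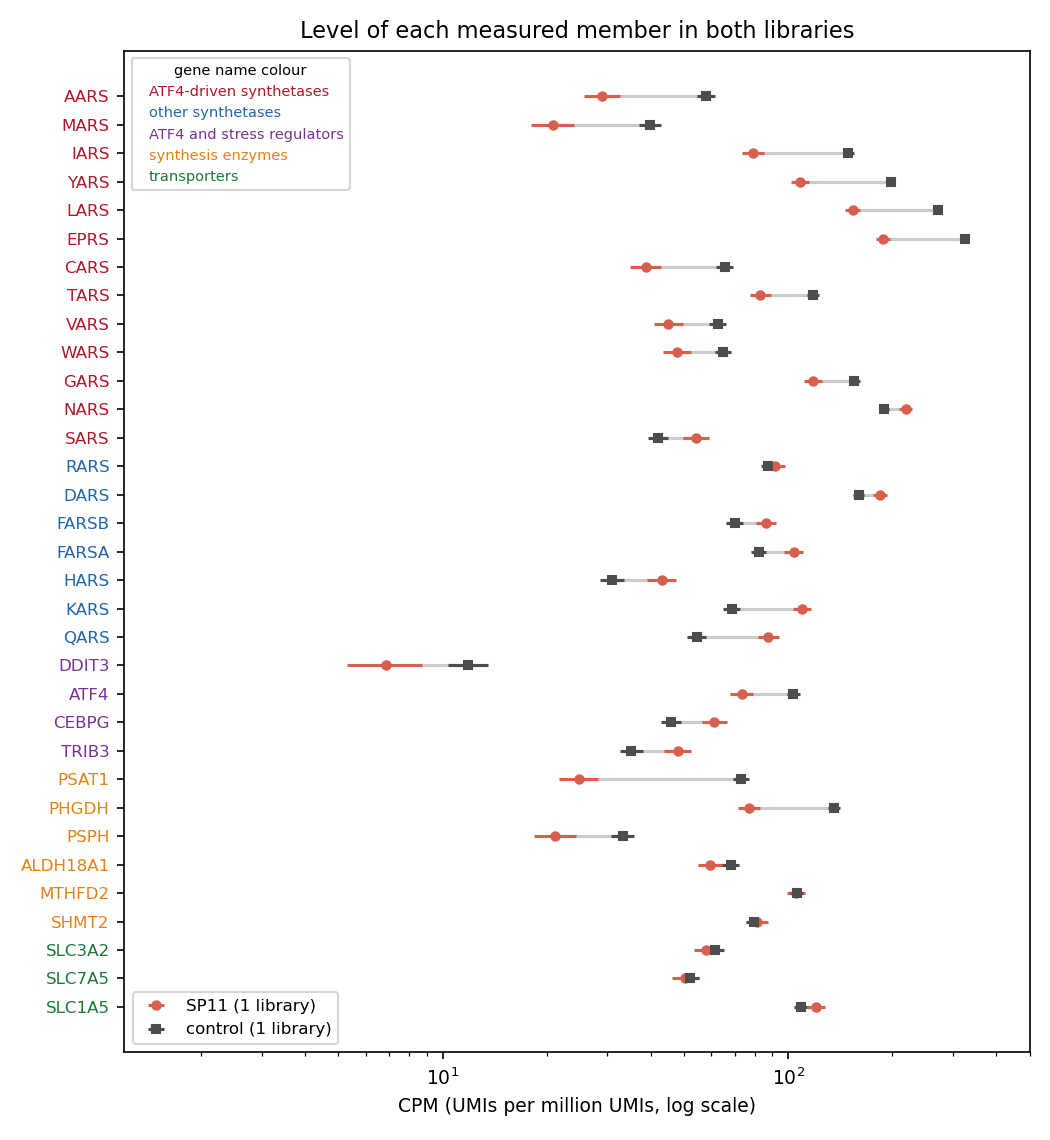
CPM (log axis) of each measured gene, with SP11 and control as separate points and the gene groups set apart; error bars are exact 95% Poisson intervals. SP11 points lie below control points for 11 of 13 ATF4-driven synthetases and above them for all 7 other synthetases.

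Among the ATF4-driven synthetases the lowest ratio belonged to AARS, the alanyl-tRNA synthetase, at 29.0 CPM in SP11 and 57.8 CPM in control (log2 ratio -0.998, -1.19 to -0.81). MARS, which charges the methionine tRNAs, followed at 20.8 CPM in SP11 and 39.8 CPM in control (-0.93, -1.17 to -0.71). IARS, for isoleucine, had 79.3 CPM in SP11 and 149 CPM in control (-0.91, -1.03 to -0.79). The intervals of these 3 genes overlap each other and those of YARS, LARS, EPRS and CARS below, so their order is not set by the counts.

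YARS, for tyrosine, had 108 CPM in SP11 and 198 CPM in control (-0.87, -0.97 to -0.77), and LARS, for leucine, had 154 CPM in SP11 and 271 CPM in control (-0.81, -0.90 to -0.73). EPRS encodes a single protein that charges both glutamate and proline tRNAs. It lies on the minus strand of chromosome 1 (219968600 to 220046530, GRCh38) and had 188 CPM in SP11 and 326 CPM in control (-0.79, -0.87 to -0.72). CARS, for cysteine, had 38.7 CPM in SP11 and 65.5 CPM in control (-0.76, -0.93 to -0.59). Relative to the median gene, these 7 genes had ratios of -0.41 (CARS) to -0.65 (AARS), so AARS alone stayed past 1.5-fold on that scale.

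A further 4 ATF4-driven synthetases were lower in CPM by less than 1.5-fold. TARS, for threonine, had 83.2 CPM in SP11 and 118 CPM in control (-0.51, -0.62 to -0.39). VARS, for valine, had 45.1 CPM in SP11 and 62.6 CPM in control (-0.47, -0.64 to -0.31). WARS, for tryptophan and also known as an interferon-induced gene, had 47.6 CPM in SP11 and 64.8 CPM in control (-0.45, -0.60 to -0.29). GARS, whose glycyl-tRNA synthetase serves both cytosol and mitochondria, had 118 CPM in SP11 and 155 CPM in control (-0.39, -0.49 to -0.29). Against the median gene these 4 lay between -0.15 and -0.04.

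The 2 ATF4-driven synthetases that were higher in SP11 were SARS and NARS. SARS, for serine, had 54.1 CPM in SP11 and 42.1 CPM in control (0.36, 0.20 to 0.52). NARS, for asparagine, lies on chromosome 18 (57600656 to 57622213, GRCh38) and had 219 CPM in SP11 and 189 CPM in control (0.21, 0.13 to 0.29). Neither interval reaches 0, and NARS held 2079 of the 11256 ATF4-driven UMIs in SP11. Without NARS and SARS the pooled ratio of the ATF4-driven set was -0.72 and its difference from the others -1.08, a choice made after their values were seen.

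**Figure D2:**
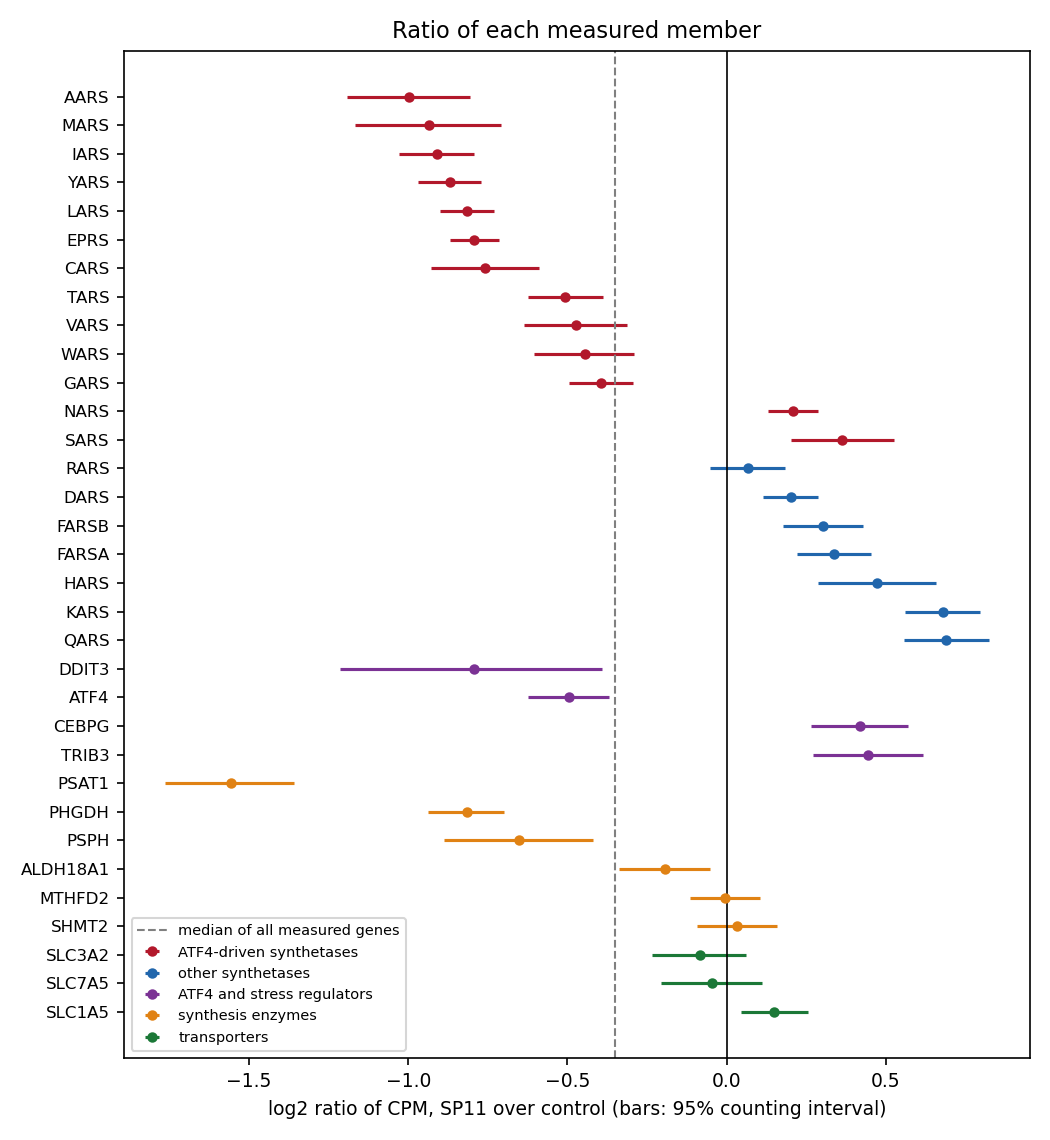
Log2 ratio of SP11 to control CPM for each measured gene by group, with exact 95% counting intervals; the dashed line marks the median of all measured genes at -0.35. The ATF4-driven synthetases run between -0.998 and 0.36 and the other synthetases between 0.07 and 0.69.

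Of the other synthetases, the highest ratios belonged to QARS and KARS, both subunits of the multisynthetase complex. QARS, for glutamine, lies on chromosome 3 (49095932 to 49105130, GRCh38) and had 87.7 CPM in SP11 and 54.3 CPM in control (0.69, 0.56 to 0.82). KARS, the lysyl-tRNA synthetase of both cytosol and mitochondria, had 110 CPM in SP11 and 68.6 CPM in control (0.68, 0.56 to 0.80). These were the 2 genes of the set past 1.5-fold, and their intervals overlap almost fully.

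HARS, for histidine, had 43.1 CPM in SP11 and 31.0 CPM in control (0.47, 0.29 to 0.66). The phenylalanyl-tRNA synthetase is built from 2 kinds of subunit, and their genes had like ratios: FARSA had 104 CPM in SP11 and 82.1 CPM in control (0.34, 0.22 to 0.45), and FARSB had 86.3 CPM in SP11 and 70.0 CPM in control (0.30, 0.18 to 0.43). DARS, for aspartate, had 184 CPM in SP11 and 160 CPM in control (0.20, 0.12 to 0.29). RARS, for arginine, had 91.8 CPM in SP11 and 87.7 CPM in control (0.07, -0.05 to 0.18), so its difference was within counting error. RARS was also the lowest of the set relative to the median gene, at 0.42.

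In animal cells, 8 of these synthetases join a single large complex, and it holds members of both sets. The 4 ATF4-driven subunits (EPRS, IARS, LARS and MARS) were each at least 1.5-fold lower in SP11 by CPM, as were 38.4% of measured genes. The 4 others (DARS, KARS, QARS and RARS) each had a ratio above 0, as did 32.6% of measured genes. The difference of pooled ratios was -1.18 (-1.25 to -1.11) inside the complex and -0.71 (-0.80 to -0.62) among synthetases outside it. ATF4-driven subunits made up 48.3% of the complex's synthetase UMIs in SP11 and 67.9% in control. Relative to the median gene, 0 of the 4 ATF4-driven subunits were past 1.5-fold lower, against 24.3% of measured genes. The complex also holds 3 scaffold proteins without synthetase activity. Of their genes AIMP1 had 218 CPM in SP11 and 126 CPM in control, a log2 ratio of 0.79, AIMP2 had a ratio of 0.56, and EEF1E1 had one of -0.02.

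Some of these genes overlap another counted gene: this held for 11 of the 20 synthetases. No source used here says whether reads were counted by strand, so the UMIs of such pairs are uncertain. MARS and DDIT3, for example, share 982 bases on opposite strands. With the overlapping synthetases left out, the pooled ratio of the ATF4-driven set was -0.41 and the difference from the others -0.73.

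The promoters are shown because ATF4 and its C/EBP partners bind a known composite element with the letters TGATGNAA. RefSeq promoter entries (GRCh38.p14) were found for 10 of the 13 ATF4-driven synthetases, 6 of the 7 others and 13 of the 16 other genes; DARS, LARS, VARS, YARS, PSPH, SHMT2 and PYCR1 had none. Searched on both strands, where the reverse reads TTNCATCA, the 250 bases before the start held the letters in 3 of 10 ATF4-driven synthetases (AARS, GARS and IARS), in 0 of 6 others, and in 4 of 13 of the remaining genes (CHAC1, CEBPG, ASNS and SLC1A5). Among all 27305 genes with an entry, 3.89% held them. In the whole window of 300 bases, which runs 50 bases past the start and was added after the data were seen, CARS, MARS, NARS and TARS also held a match, as did SLC3A2, giving 7 of 10 ATF4-driven synthetases, 0 of 6 others, 5 of 13 of the remaining genes and 4.46% of all genes. Capitals mark the matched letters in these windows of 30 bases, each written along the gene's own strand.
AARS, chr16:70289675-70289704, minus strand: ttttctcgcagTTGCATCAgccaagttaga
CARS, chr11:3057407-3057436, minus strand: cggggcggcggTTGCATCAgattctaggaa
GARS, chr7:30594834-30594863, plus strand: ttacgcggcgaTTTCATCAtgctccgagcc
IARS, chr9:92293692-92293721, minus strand: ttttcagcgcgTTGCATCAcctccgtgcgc
MARS, chr12:57488053-57488082, plus strand: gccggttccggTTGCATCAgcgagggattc
NARS, chr18:57621804-57621833, minus strand: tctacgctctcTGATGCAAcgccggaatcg
TARS, chr5:33440956-33440985, plus strand: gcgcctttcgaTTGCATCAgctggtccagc
CEBPG, chr19:33374060-33374089, plus strand: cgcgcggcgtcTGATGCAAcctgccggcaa
SLC1A5, chr19:46784893-46784922, minus strand: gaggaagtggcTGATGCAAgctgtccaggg

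A match describes letters and is no evidence of binding in these cells. The 7 ATF4-driven synthetases with a match had ratios between -0.998 (AARS) and 0.21 (NARS), so genes with the letters were found on both sides of 0. EPRS, SARS and WARS had an entry without a match, and SARS was the highest of the ATF4-driven set while EPRS was past 1.5-fold lower.

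ATF4 itself, on chromosome 22 (39519695 to 39522683, GRCh38), had 73.4 CPM in SP11 and 103 CPM in control (-0.50, -0.62 to -0.37), and its ratio relative to the median gene was -0.14. ATF4 is regulated largely in translation, which RNA counts do not measure. DDIT3, which encodes the stress factor CHOP, had 65 UMIs in SP11 and 230 in control, or 6.84 CPM in SP11 and 11.9 CPM in control (-0.79, -1.21 to -0.39). TRIB3, a pseudokinase that restrains ATF4 activity, went the other way, with 47.9 CPM in SP11 and 35.2 CPM in control (0.44, 0.27 to 0.62). CEBPG, a partner of ATF4 on DNA, had 61.2 CPM in SP11 and 45.8 CPM in control (0.42, 0.26 to 0.57). TRIB3 and CEBPG were both past 1.5-fold higher relative to the median gene, at 0.80 and 0.77. CHAC1, which degrades glutathione, had 8 UMIs in SP11 and 27 in control and stayed under the minimum.

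Genes for all 3 steps of serine synthesis were at least 1.5-fold lower in SP11 by CPM, as were 38.4% of measured genes. PHGDH, which starts the pathway from a glycolytic intermediate, had 77.2 CPM in SP11 and 136 CPM in control (-0.82, -0.94 to -0.70). PSAT1, the aminotransferase of the second step, lies on chromosome 9 (78297125 to 78330093, GRCh38) and had 24.8 CPM in SP11 and 73.1 CPM in control. PSAT1 had the lowest ratio of the 33 measured genes, -1.56 (-1.76 to -1.36), a level 2.94-fold higher in control. PSPH, the phosphatase that releases serine, had 21.2 CPM in SP11 and 33.2 CPM in control (-0.65, -0.89 to -0.42). Relative to the median gene only PSAT1 was past 1.5-fold lower, at -1.21, with PHGDH at -0.46 and PSPH at -0.30. On that scale 24.3% of measured genes were past 1.5-fold lower.

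The enzymes that carry serine onward into mitochondrial folate metabolism differed little in CPM. SHMT2, which splits serine into glycine and a folate-bound carbon, had 81.4 CPM in SP11 and 79.5 CPM in control (0.03, -0.09 to 0.16). Its ratio was -0.09 with the intronic length trend subtracted, 0.36 with TMM scaling, 0.38 with DESeq2 scaling and 0.39 relative to the median gene. MTHFD2, which oxidises that carbon unit, had 105 CPM in SP11 and 106 CPM in control (-0.01, -0.12 to 0.10), and a ratio of 0.35 relative to the median gene. ALDH18A1, the first enzyme of proline synthesis, had 59.6 CPM in SP11 and 68.2 CPM in control (-0.19, -0.34 to -0.05), and lay above 0 with TMM and DESeq2 scaling, at 0.13 and 0.16. MTHFD2 likewise lay above 0 under both of those scalings.

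Both remaining synthesis genes had too few UMIs to be measured. ASNS, the asparagine synthetase, had 3 UMIs in SP11 and 23 in control, an interval of -4.29 to -0.18 on the log2 scale. Of its 4896 exonic bases, 2415 lie within exons of AC079781.5, a gene on the same strand with 298 UMIs in SP11 and 1744 in control. The sum of both genes was 301 UMIs in SP11 and 1767 in control (-1.53, -1.71 to -1.35), and reads of the pair cannot be told apart from the deposited counts. PYCR1, the last enzyme of proline synthesis, had 0 UMIs in both libraries, for which a limit of 3 counts is 0.316 CPM in SP11 and 0.155 CPM in control and the exact interval reaches 0.388 CPM in SP11 and 0.190 CPM in control. MYADML2, which overlaps it on the same strand, was also at 0 in both.

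The transporters stayed close to equal in CPM, and their median ratio was 0.31 relative to the median gene. SLC7A5 and SLC3A2 encode the light and heavy chains of the LAT1 exchanger for large neutral amino acids. SLC7A5 had 50.4 CPM in SP11 and 52.1 CPM in control (-0.05, -0.21 to 0.11), and SLC3A2 had 58.0 CPM in SP11 and 61.5 CPM in control (-0.08, -0.23 to 0.06). Both intervals span 0, and both ratios lay above 0 with TMM and DESeq2 scaling. SLC1A5, the glutamine carrier ASCT2, had 121 CPM in SP11 and 109 CPM in control (0.15, 0.04 to 0.25).

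The contrast between the synthetase sets was also visible cell by cell. Each cell was thinned at random to 4400 UMIs to remove the difference in depth, which kept 769 SP11 and 963 control cells and left out 83 SP11 and 90 control cells that were shallower. A thinned cell held on average 5.21 UMIs of ATF4-driven synthetases in SP11 and 7.48 in control, with a median of 5 in SP11 and 7 in control. For the other synthetases the means were 3.07 in SP11 and 2.40 in control. More ATF4-driven than other UMIs were found in 72.2% of SP11 cells (68.9 to 75.3%) and 91.3% of control cells (89.3 to 93.0%), or 81.9% of SP11 and 96.6% of control cells without thinning. The distributions overlap widely, and cells of 1 library are not replicates.

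**Figure D3:**
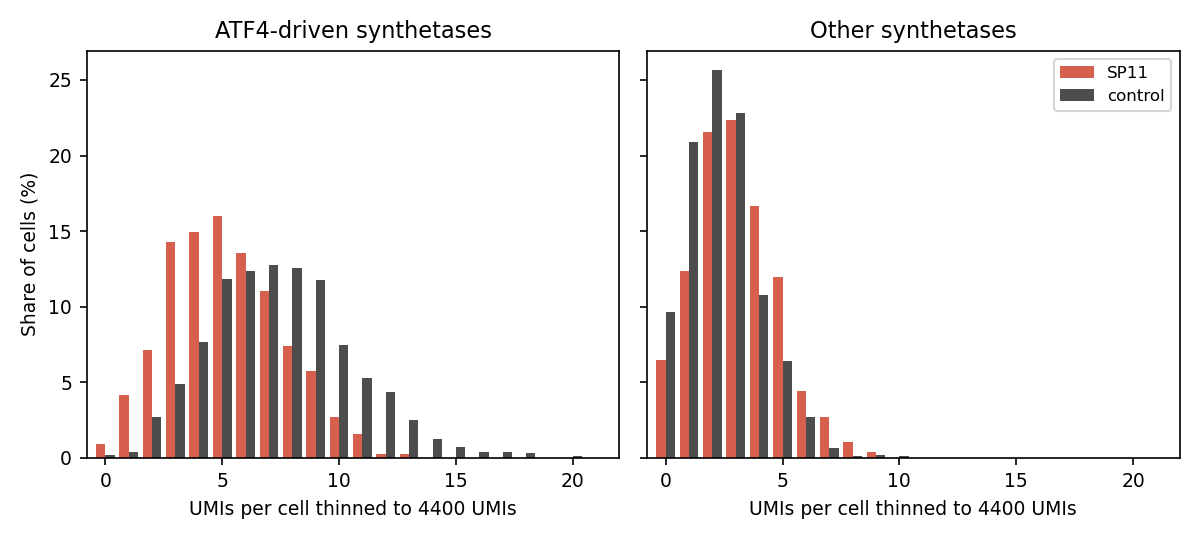
Share of cells (percent) by number of ATF4-driven and of other synthetase UMIs per cell after thinning to 4400 UMIs, for 769 SP11 and 963 control cells. The SP11 curve is shifted to lower numbers for the ATF4-driven set and to higher numbers for the others.

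In the share of thinned cells with a UMI, 30 of the 33 genes differed in the direction of their CPM ratio, the exceptions being RARS, MTHFD2 and SLC3A2, whose ratio intervals span 0. EPRS was detected in 52.8% of SP11 cells (49.2 to 56.4%) and 74.4% of control cells (71.5 to 77.1%), or 76.6% of SP11 and 92.6% of control cells without thinning. PSAT1 was detected in 10.8% of SP11 cells (8.69 to 13.2%) and 26.4% of control cells (23.6 to 29.3%), or 21.5% of SP11 and 61.7% of control cells without thinning. KARS went the other way, with 36.8% of SP11 cells (33.4 to 40.3%) and 24.9% of control cells (22.2 to 27.8%). TRIB3 was found in 20.9% of SP11 cells (18.1 to 24.0%) and 14.3% of control cells (12.2 to 16.7%). Without thinning, KARS was found in 64.0% of SP11 and 64.7% of control cells and TRIB3 in 38.3% of SP11 and 42.2% of control cells, so the order of these shares depended on depth. Every cell needs synthetases, so no cell type that lacks them was at hand and the share owed to free RNA was not measured. No single cell held more than 3.08% of the UMIs in SP11, or 1.74% in control, of any of the 33 measured genes among the 36 listed.

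The cells of each library were also clustered alone, and the clusters are given by number and leading genes. ATF4-driven synthetases made up 57.9 to 66.8% of synthetase UMIs over the 6 SP11 clusters and 70.8 to 81.2% over the 6 control clusters, so the ranges do not overlap. Both outer ends came from clusters of shallow cells. SP11 cluster 4, led by MMP1 and SERPINB2, had a median of 1826 UMIs per cell and 302 synthetase UMIs (52.2 to 63.6%). Control cluster 5, led by VPS28 and NDUFB3, had a median of 787.5 UMIs per cell and 218 synthetase UMIs (75.4 to 86.2%). Clusters led by the mitotic genes PIF1 and UBE2C had 60.3% in SP11 and 75.4% in control. The highest SP11 value came from a cluster of 20 cells led by ATP6V0D2, TDO2 and S100A9 (66.8%, 61.7 to 71.5%). In that cluster both sets were low among the SP11 clusters, at 885 CPM for ATF4-driven and 441 CPM for other synthetases. The lowest control value came from the control cluster led by DDIT4 and PFKFB4 (70.8%, 69.2 to 72.2%), in which ATF4-driven synthetases held 1365 CPM and PSAT1 32.7 CPM. PSAT1 had 62.4 to 91.6 CPM in the other control clusters, the lower end resting on 6 UMIs in control cluster 5 (22.9 to 136 CPM). ATF4 RNA was also lowest in the cluster led by DDIT4 among control clusters, at 64.9 CPM. That lay within the range of the SP11 clusters, 29.9 to 93.7 CPM, whose lower end rests on 5 UMIs in SP11 cluster 4 (9.72 to 69.9 CPM). The clusters were built from all genes, these included, and are a description only.

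**Figure D4:**
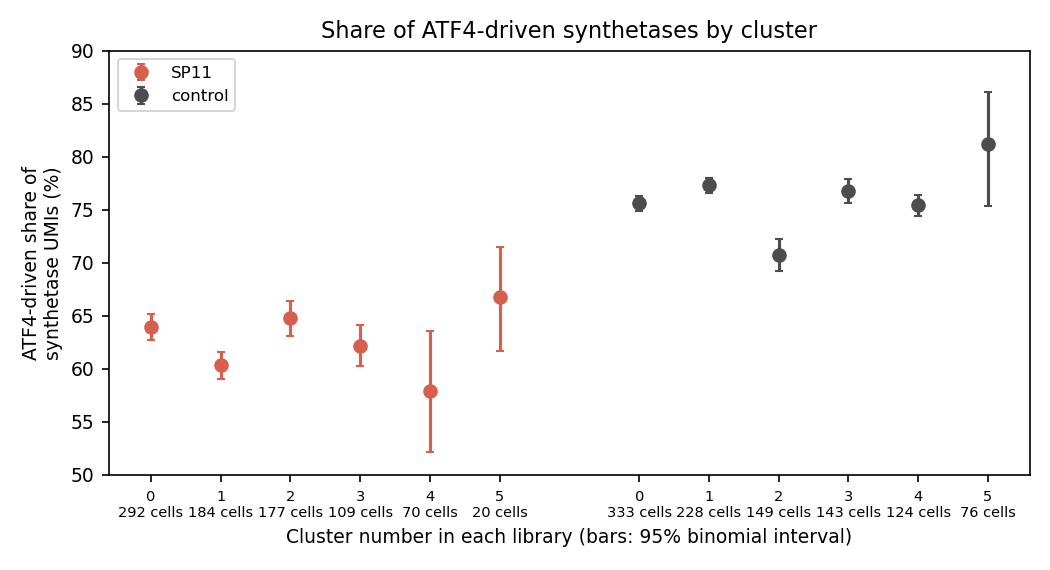
ATF4-driven share of synthetase UMIs (percent, axis from 50) in each cluster of the SP11 and the control library, with exact 95% binomial intervals. All 6 SP11 clusters lie between 57.9 and 66.8%, below the 6 control clusters between 70.8 and 81.2%. The lowest SP11 and the highest control value come from clusters of shallow cells.

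Other genes of the pathway were taken from lists and described by counts. Their ratios are of CPM, and relative to the median gene each lies 0.35 higher, so that a gene between -0.35 and 0, such as EIF2AK4, PPP1R15B, EIF2B3 or EEF1E1, then lies above 0. The mitochondrial synthetases, a separate gene set, were all measured (17 of 17), with a median of -0.16 in CPM and 0.19 relative to the median gene. In CPM 1 was at least 1.5-fold higher and 5 lower, against 10.7% and 38.4% of measured genes. Relative to the median gene 3 were higher and 1 lower, against 22.5% and 24.3%. VARS2 had a ratio of 0.83 and IARS2 one of 0.42, whereas FARS2 had -1.06 and NARS2 -0.87. The mitochondrial and cytosolic enzymes for the same amino acid could thus differ in sign, as NARS2 and NARS did.

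Upstream of ATF4, all 4 eIF2 kinase genes had a ratio below 0, as did 67.4% of measured genes. EIF2AK3 (PERK) was lowest at -0.96 and EIF2AK4 (GCN2, the sensor of uncharged tRNA) highest at -0.33. Relative to the median gene 1 of the 4 was past 1.5-fold lower, against 24.3% of measured genes. The 8 genes for subunits of eIF2 and its exchange factor eIF2B had a median of 0.12, with EIF2B4 at 0.80 and EIF2B3 at -0.24. PPP1R15A, which encodes GADD34 and reverses eIF2 phosphorylation under stress, had a ratio of 0.66, and its constitutive relative PPP1R15B one of -0.14.

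Downstream, 15 of 20 other known ATF4 targets were measured, with a median of -0.95. In CPM 1 was higher and 9 lower by at least 1.5-fold, against 10.7% and 38.4% of measured genes. Relative to the median gene 1 was higher and 8 lower, against 22.5% and 24.3%. ATF5, a close relative of ATF4, had 42.8 CPM in SP11 and 16.3 CPM in control (1.39). SLC7A11, the cystine carrier, had a ratio of 0.12. At the other end DDIT4, an mTORC1 inhibitor also induced by hypoxia, had 23 UMIs in SP11 and 491 in control (-3.39, -4.06 to -2.79). DDIT4 was a leading gene of the control cluster with the lowest ATF4 RNA among control clusters, 64.9 CPM. VLDLR, a lipoprotein receptor, had 42 UMIs in SP11 and 411 in control (-2.26, -2.76 to -1.80).

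Among 9 measured genes of other serine, glycine and folate enzymes the median was -0.61. In CPM 0 were higher and 5 lower, against 10.7% and 38.4% of measured genes. Relative to the median gene 2 were higher and 2 lower, against 22.5% and 24.3%. TYMS, the thymidylate synthase, had a ratio of 0.42, whereas AMT of glycine cleavage had 11 UMIs in SP11 and 81 in control (-1.85, -2.91 to -0.94). For the 11 measured proline, glutamine and aspartate enzymes the median was -0.33. Against the same shares, 0 were higher and 5 lower in CPM, and 3 higher and 5 lower relative to the median gene. ALDH4A1 of proline breakdown had 0.40 and GOT2, a mitochondrial aspartate aminotransferase, had 0.39.

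All 12 measured genes of other amino acid transporters had a CPM ratio below 0, as did 67.4% of measured genes, with a median of -0.56. At least 1.5-fold lower in CPM were 6, against 38.4% of measured genes. Relative to the median gene 2 of them were still past that size, against 24.3%. SLC16A10 was lowest at -1.08, followed by SLC38A2, the carrier induced when amino acids are removed, at -1.04, whereas SLC43A1 had -0.05 and SLC43A2, with 18 UMIs in SP11 and 37 in control, had -0.01 (-0.91 to 0.84). The 16 genes of amino acid sensing by mTORC1 and GCN2 were spread widely, with a median of -0.27. In CPM 3 were higher and 5 lower, against 10.7% and 38.4% of measured genes. Relative to the median gene 6 were higher and 2 lower, against 22.5% and 24.3%, a turn of the balance. RRAGC had a ratio of 1.29 and LAMTOR1 one of 0.93, both parts of the lysosomal anchor of mTORC1, while SAMTOR, listed as BMT2 in the files, had -1.48 and RRAGB had -1.45.

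**Figure D5:**
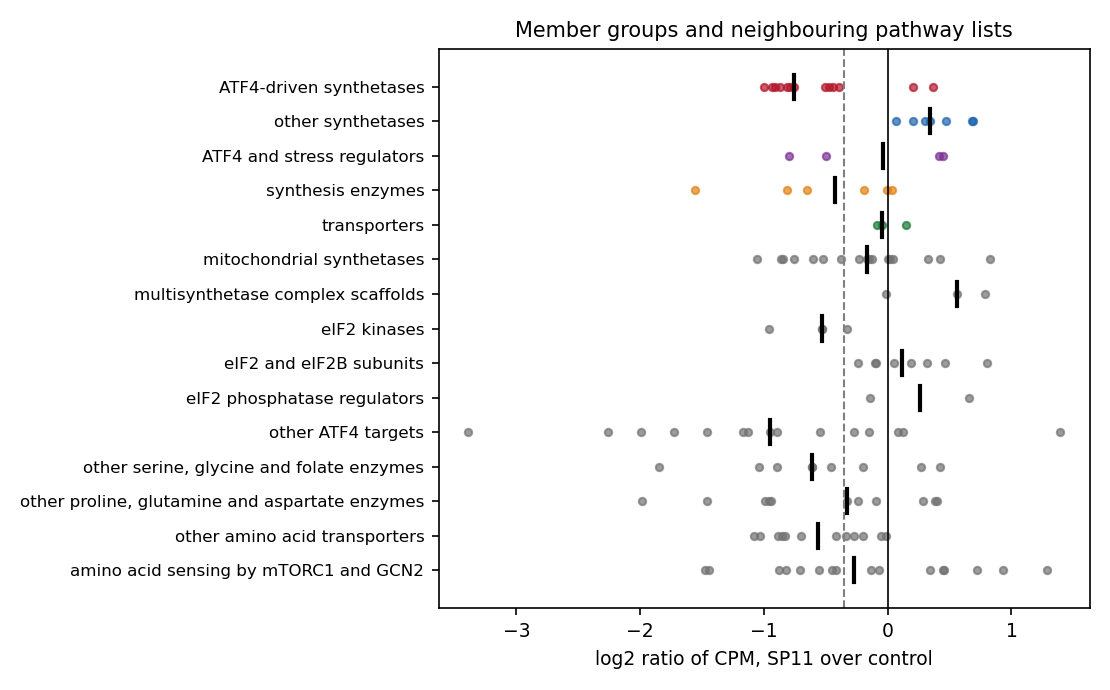
Log2 ratio of SP11 to control CPM of each measured gene (points) in the pathway lists, with black ticks at list medians and a dashed line at the median of all measured genes, -0.35. The other ATF4 targets have the lowest list median, -0.95, and the multisynthetase complex scaffolds the highest, 0.56.

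Genes with longer introns had lower ratios in these libraries: over 20 bins of intronic length, the bin medians ran from -1.02 to 0.12. The introns of the ATF4-driven synthetases summed to a median of 35097 bases per gene and those of the others to 17119 bases, against 27796 bases over measured genes. With the bin medians subtracted, the pooled ratio was -0.20 for the ATF4-driven set and 0.65 for the others, and their difference was -0.85. The difference between the sets thus kept its sign and most of its size on a scale where the level of each set against 0 moved.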

How the data were processed

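Cells labelled MOLT4 were profiled by droplet single-cell RNA-seq, 1 SP11 and 1 control library. The authors deposited raw UMI counts per gene and barcode, made with Cell Ranger 7.1.0 on GRCh38 (hg38), with no normalization. Members and gene lists, including the split into ATF4-driven and other synthetases, were chosen with earlier results of these data known. Barcodes with at least 200 genes and at most 20% mitochondrial UMIs were kept, the filter the study states. Here it left more control cells than the study kept, and a few more SP11 cells. Scrublet marked 21 SP11 and 45 control cells, which were kept in the values given. UMIs were summed per library, scaled to CPM and compared as log2 ratios with exact 95% intervals, which cover counting error only. Depth was 9498802 UMIs in SP11 and 19375163 in control, so 3 counts correspond to 0.316 CPM in SP11 and 0.155 CPM in control. With 1 library per group there was no test, and size was described by a fold of 1.5.

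All 36 members were named, and from each further list up to 2 genes at each end of the ratio among those with 50 or more UMIs. Where a named gene had under 50 UMIs in a library, its counts are given. Some genes that this rule names are not reported here. Clusters came from Seurat 5.3.0 in each library alone (2000 variable features, 10 components, resolution 0.5). As other scalings only, size factors were taken from DESeq2 1.42.0 and TMM factors from edgeR 4.0.16. Gene positions and intronic lengths came from GENCODE 44, and promoters from RefSeq. The calculations were tested on simulated data. Alternatives changed the scaling, cell filters, gene minimum, weights, clusters and thinning; those that left out NARS and SARS, EPRS or overlapping synthetases, split the multisynthetase complex, summed ASNS with its overlapping gene or widened the promoter window were added after the data were seen.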

Additional observations from a re-analysis of the deposited data

How the results depend on the processing

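Counts limit precision for DDIT3, CHAC1 and ASNS, and no replicate exists for any value. No paired analysis was possible because each group had 1 library. The difference between ATF4-driven and other synthetases ran from -1.08 to -0.54 over 24 alternatives. A further 5 (TMM, DESeq2, totals without mitochondrial genes and the minima of 10 and 200 UMIs) leave it at -0.90 by construction. Of 792 alternative values of 33 single genes under 24 settings, 699 lay inside the counting interval and 93 outside, and 0 changed sign from at least 1.5-fold.

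With TMM factors the pooled log2 ratios were -0.23 for ATF4-driven synthetases, 0.67 for other synthetases and 0.11 for the remaining genes (CPM: -0.55, 0.35 and -0.21), with 8 genes at least 1.5-fold higher and 4 lower (CPM: 2 and 11). Of all measured genes, 21.4% were higher and 25.1% lower with TMM factors, and 10.7% higher and 38.4% lower in CPM. The medians were -0.44 for ATF4-driven synthetases, 0.66 for others, 0.28 for regulators, -0.10 for synthesis enzymes and 0.28 for transporters. With DESeq2 size factors the pooled ratios were -0.20, 0.70 and 0.14, with 8 genes higher and 2 lower (all measured genes: 22.5% and 24.3%). Its medians, in the same order of groups, were -0.41, 0.69, 0.31, -0.0728 and 0.30. Both scalings centre the ratios near the median gene. With the intronic length trend subtracted the pooled ratios were -0.20, 0.65 and -0.00274, and the difference was -0.85. On that scale 5 genes were higher and 4 lower, and the shares of all measured genes are not given here. The medians were -0.35 for ATF4-driven synthetases, 0.67 for others, -0.17 for synthesis enzymes and 0.19 for transporters.

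Totals without mitochondrial genes gave pooled ratios of -0.61, 0.30 and -0.27. Weighting cells equally gave 0.40 for other synthetases, -0.17 for the remaining genes and a difference of -0.96. A mitochondrial maximum of 10% gave -0.59 for ATF4-driven synthetases. A minimum of 10 UMIs gave medians of -0.50 for regulators and -0.65 for synthesis enzymes, through added genes. The causes of the other shifts were not tested.

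Counting LARS and VARS among the others gave pooled ratios of -0.51 for ATF4-driven and 0.0296 for other synthetases and a difference of -0.54. Leaving out NARS and SARS gave -0.72 and a difference of -1.08, leaving out EPRS gave -0.50, and leaving out synthetases that overlap another gene gave -0.41, a difference of -0.73 and a median of -0.49. The whole 300-base window gave 7 ATF4-driven synthetases with the letters, against 3 in 250 bases.

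Leaving out each cluster in turn gave pooled ratios of -0.59 to -0.51 for ATF4-driven synthetases, 0.26 to 0.39 for others and -0.26 to -0.18 for the remaining genes, and a difference of -0.94 to -0.84. The medians ran from -0.81 to -0.66 for ATF4-driven synthetases, 0.29 to 0.40 for others, -0.11 to 0.02 for regulators, -0.50 to -0.35 for synthesis enzymes and -0.13 to 0.05 for transporters. Genes at least 1.5-fold higher numbered 2 each time, and those lower 10 to 12. With all clusters kept, 10.7% of all measured genes were higher and 38.4% lower.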
